A study of Mus musculus with 6 samples.

Results

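The 10 genes described here encode actin-binding and contractile proteins of the smooth muscle type and their close relatives: *Tagln*, *Tagln2*, *Cnn1*, *Cnn2*, *Csrp1*, *Csrp2*, *Myl9*, *Myh11*, *Cald1* and *Smtn*. They were taken by symbol from the 55421 genes of the deposited table and selected on knowledge of how some of them differed between the 2 groups, so their differences are given as a description and not as a test. All 10 were found, and all 10 passed the filter on low counts that left 19005 genes. Total RNA was sequenced from C2C12 cells, a mouse myoblast line that fuses into multinucleated myotubes when serum is withdrawn, at day 4 of differentiation. The normal group (CUG5) and the DM1 group (CUG200, a model of myotonic dystrophy type 1) had been stably transfected with a *GFP* plasmid whose transcribed part holds 5 or 200 CTG repeats, and both groups had been selected with G418. Each group had 3 libraries, which the study describes as biological replicates. Whether a group was 1 clone or a pool, and whether its libraries came from separate transfections, is not given in the sources used here, so p-values measure only the spread between these libraries.

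Smooth muscle cells use a thin filament decorated by proteins that skeletal muscle fibers largely do without. Transgelin and calponin share a calponin-homology domain and bind actin filaments, caldesmon restrains the actin-activated ATPase of myosin, smoothelin marks contractile smooth muscle, and the cysteine-rich LIM proteins bring alpha-actinin and transcription factors together. *Myh11* and *Myl9* encode the heavy chain and the regulatory light chain of smooth muscle myosin. Many of these genes are driven by serum response factor (SRF), which binds a DNA element named the CArG box and acts with myocardin or with the actin-sensing myocardin-related factors MRTFA and MRTFB. Several of them are also made by myoblasts and fibroblasts, in which they belong to stress fibers, and the paralogs *Tagln2* and *Cnn2* are broadly expressed in cells of many kinds.

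Promoter sequences from RefSeq (GRCm38.p6) were available for 7 of the 10 genes, in 9 windows of 300 bases that run from 250 bases before to 50 bases after a start site. *Tagln*, *Csrp2* and *Myh11* had no entry. The CArG box (both strands searched) occurred in 2 of the 9 windows, those of *Cnn2* and *Myl9*, and in 1.63% of all 32851 windows. The list was drawn up around genes driven by SRF, so nothing is read from this difference. The 250 bases before the start site are shown for *Cnn2* and *Myl9*, with CArG boxes in capitals. They are also shown for *Cnn1*, the only matched gene that passed the threshold between the groups. They lie on the plus strand at chr10:79988350-79988599 (*Cnn2*), chr2:156775214-156775463 (*Myl9*) and chr9:22099003-22099252 (*Cnn1*).
Cnn2: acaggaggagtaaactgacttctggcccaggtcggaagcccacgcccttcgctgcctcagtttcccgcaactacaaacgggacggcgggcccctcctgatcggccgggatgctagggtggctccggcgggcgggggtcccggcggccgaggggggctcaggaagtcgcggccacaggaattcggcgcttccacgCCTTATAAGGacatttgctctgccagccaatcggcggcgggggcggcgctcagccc
Myl9: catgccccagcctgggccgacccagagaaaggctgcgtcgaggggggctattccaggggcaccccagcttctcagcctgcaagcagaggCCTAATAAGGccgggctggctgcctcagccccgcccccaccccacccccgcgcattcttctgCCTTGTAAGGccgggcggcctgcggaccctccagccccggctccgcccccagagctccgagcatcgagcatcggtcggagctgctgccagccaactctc
Cnn1: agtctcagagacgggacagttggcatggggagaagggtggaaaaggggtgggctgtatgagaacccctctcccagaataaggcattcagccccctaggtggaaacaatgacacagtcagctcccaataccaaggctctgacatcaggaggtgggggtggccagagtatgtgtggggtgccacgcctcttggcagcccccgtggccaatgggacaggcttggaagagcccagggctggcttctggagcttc
The box of *Cnn2* began 56 bases before the start site. *Myl9* had a box 161 bases before its start site and, also in capitals, a second element 99 bases before it that has 1 C or G in the A and T core of 6 bases. That looser form was found in 8.50% of all windows and in no other matched member. No element in capitals appears in the *Cnn1* stretch, which says only that these letters are not in this window. The E-box CANNTG, the general element bound by the MyoD family, was in 8 of the 9 windows (6 of the 7 genes) and in 72.3% of all windows. Matches to short elements are descriptions of the letters and not of binding.

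Counts summed to between 61707889 and 80957325 per library. In this table a count stands for 75 aligned bases, and the commonest low value was 4 counts, which corresponds to between 15426972 and 20239331 fragments per library if each fragment gave 4 counts. Levels of 1 gene across libraries are given as CPM, counts scaled to a common library size with TMM factors, and levels of different genes are compared only by TPM, which the authors' tables scale for transcript length as well. A gene passed the threshold when its p-value from the quasi-likelihood test of edgeR, adjusted by the Benjamini-Hochberg method over all 19005 genes, was under 0.05. The test called 1356 genes higher and 1660 lower in the DM1 group. On log2(TPM + 1) limma called 427 higher and 816 lower, which moved the share of higher calls from 45.0% to 34.4%.

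Of the 10 genes, *Tagln*, *Csrp2* and *Cnn1* were upregulated in the DM1 group, each by more than 1 on the log2 scale, and none was downregulated past the threshold. The background was 7.13% of all tested genes higher and 8.73% lower, and 1.36% and 0.816% with an absolute log2 fold change over 1 in addition. Because the members were selected on this contrast, nothing is read from these shares. The CPM values of the groups did not overlap, with the DM1 group higher, in 4 members (background 17.9%), and with the DM1 group lower in 3 members (background 19.3%). The median log2 fold change of the members was 0.00 beside 0.02 over all tested genes. The members that stood nearest to the threshold were *Cnn1* inside it and *Smtn* outside it, with log2 fold changes of 1.54 and 0.31.

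**Figure D1:**
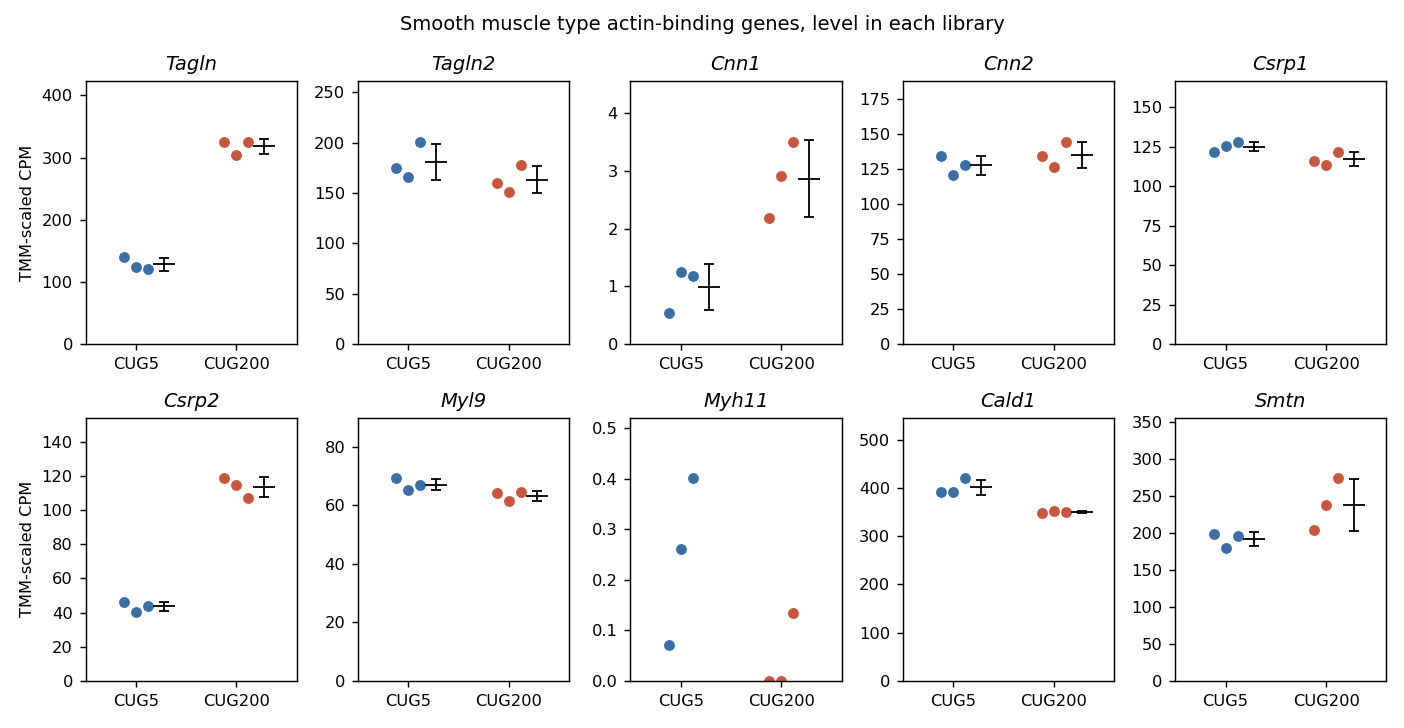
TMM-scaled CPM of each of the 10 genes in each library (points; CUG5 in blue, CUG200 in red), with the mean and SD of 3 libraries at the side (none drawn for *Myh11*). *Tagln*, *Csrp2*, *Cnn1* and, by a narrow margin, *Smtn* lie wholly higher in CUG200, and every axis starts at 0 with its own scale.

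*Tagln* (ENSMUSG00000032085, chr9:45929619-45936058, minus strand, GRCm38), which encodes transgelin or SM22-alpha, measured 140.1, 123.7 and 121.0 CPM in the normal libraries 1 to 3 and 324.9, 303.6 and 325.6 CPM in the DM1 libraries. Every DM1 library was above every normal library, with a gap far wider than the spread within either group. The means were 128.3 ± 10.3 and 318.0 ± 12.5 CPM (SD, n = 3), a log2 fold change of 1.31 ± 0.09 (SE) with a 95% interval of 1.11 to 1.51. The raw counts behind these values ran from 7598 to 24155. *Tagln* shares exonic bases with genes on the opposite strand, 1241 of its 1988 exonic bases with the antisense gene *Gm48529* and 108 with *Pcsk7*. The strand setting of the counting is not given in the sources used here, so reads of these genes may be mixed. The counts of *Gm48529* were 3.24% to 8.16% of those of *Tagln*. Those of *Pcsk7* were 15.7%, 20.6% and 23.5% of those of *Tagln* in the normal libraries and 7.08%, 5.22% and 8.43% in the DM1 libraries. With the counts of the overlapping genes added, the log2 fold change of *Tagln* was 1.12.

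*Tagln2* (ENSMUSG00000026547, chr1:172500047-172507380, plus strand) encodes transgelin-2, the broadly expressed paralog. Its levels were 174.9, 165.9 and 200.8 CPM in the normal group and 160.1, 151.2 and 177.5 CPM in the DM1 group, and the groups overlapped. The log2 fold change was -0.15 ± 0.10 (95% interval, -0.38 to 0.09), which did not pass the threshold. *Tagln3*, the remaining and mainly neuronal transgelin, was near absent at 0.62 ± 0.07 TPM and 0.74 ± 0.17 TPM, and its log2 fold change of 0.37 ± 0.34 did not pass the threshold either (adjusted p = 0.53 by edgeR's quasi-likelihood test).

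On the TPM scale, which allows the paralogs to be set side by side, *Tagln* changed its place within the family. The TPM of *Tagln* divided by that of *Tagln2* was 0.788, 0.737 and 0.599 in the normal libraries and 1.98, 1.99 and 1.81 in the DM1 libraries. *Tagln2* was thus the more abundant transgelin transcript in all 3 normal libraries and *Tagln* in all 3 DM1 libraries. *Tagln* supplied 41.2% ± 3.45 of the transgelin TPM in the normal group and 65.7% ± 1.18 in the DM1 group.

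*Csrp2* (ENSMUSG00000020186, chr10:110919789-110939622, plus strand) encodes the LIM-only protein CRP2 of vascular smooth muscle. It measured 46.2, 40.5 and 44.1 CPM in the normal libraries and 118.5, 114.9 and 107.2 CPM in the DM1 libraries, without overlap. The log2 fold change was 1.38 ± 0.09 (95% interval, 1.19 to 1.57), or 2.60-fold, from counts of 2488 to 8809. Its size was close to that of *Tagln*, and the intervals of the 2 genes overlapped.

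The paralogs of *Csrp2* did not follow it. *Csrp1* (ENSMUSG00000026421, chr1:135720061-135752232, plus strand), which encodes the CRP1 protein of smooth muscle and many other cells, measured 122.0, 125.4 and 128.2 CPM in the normal group and 116.2, 113.3 and 121.9 CPM in the DM1 group. All DM1 values lay below all normal values by a narrow margin, and the log2 fold change of -0.10 ± 0.08 (95% interval, -0.27 to 0.08) did not pass the threshold. *Csrp3*, the muscle LIM protein of striated muscle and no member of the 10, was downregulated, from 18.0, 16.6 and 13.3 CPM to 9.11, 7.37 and 6.78 CPM, with a log2 fold change of -1.04 ± 0.16 (adjusted p = 0.0056 by edgeR's quasi-likelihood test). The 3 cysteine-rich protein genes therefore showed 3 patterns: 1 was higher, 1 was lower and 1 did not pass the threshold.

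The TPM ratio of *Csrp2* to *Csrp1* was 0.788, 0.741 and 0.809 in the normal libraries and 2.22, 2.35 and 2.01 in the DM1 libraries. As with the transgelins, the order of the paralogs was opposite in the 2 groups and the same in all libraries of a group. *Csrp2* made up 39.0% ± 1.65 of the cysteine-rich protein TPM in the normal group and 66.2% ± 1.67 in the DM1 group.

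*Cnn1* (ENSMUSG00000001349, chr9:22099216-22109630, plus strand), which encodes calponin 1 of differentiated smooth muscle, was a low transcript in both groups. Its levels were 0.535, 1.25 and 1.19 CPM in the normal libraries and 2.18, 2.92 and 3.50 CPM in the DM1 libraries. These came from 45, 77 and 83 counts against 162, 208 and 233 counts, so few fragments lie behind each value, but the groups did not overlap. The log2 fold change was 1.54 ± 0.34 with a 95% interval of 0.76 to 2.32, the widest interval of the 3 upregulated members. The gene no longer passed the threshold without the third normal library (log2 fold change 1.70) or without the second DM1 library (1.52), nor with limma on TPM values.

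*Cnn2* (ENSMUSG00000004665, chr10:79988584-79996062, plus strand) encodes the calponin of non-muscle and many smooth muscle cells. It measured 133.9, 120.8 and 127.4 CPM in the normal group and 133.8, 126.5 and 144.3 CPM in the DM1 group. The ranges overlapped, and the log2 fold change was 0.08 ± 0.09 (95% interval, -0.11 to 0.28), turning to -0.04 on TPM values. *Cnn3*, the acidic calponin of many non-muscle cells, held most of the calponin transcript, 81.1% ± 0.47 of the family's TPM in the normal group and 81.6% ± 1.90 in the DM1 group, and its log2 fold change was 0.17 ± 0.10 (adjusted p = 0.28 by edgeR's quasi-likelihood test). Even after its rise *Cnn1* supplied 0.52% ± 0.13 of the calponin TPM, compared with 0.23% ± 0.09 in the normal group.

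**Figure D2:**
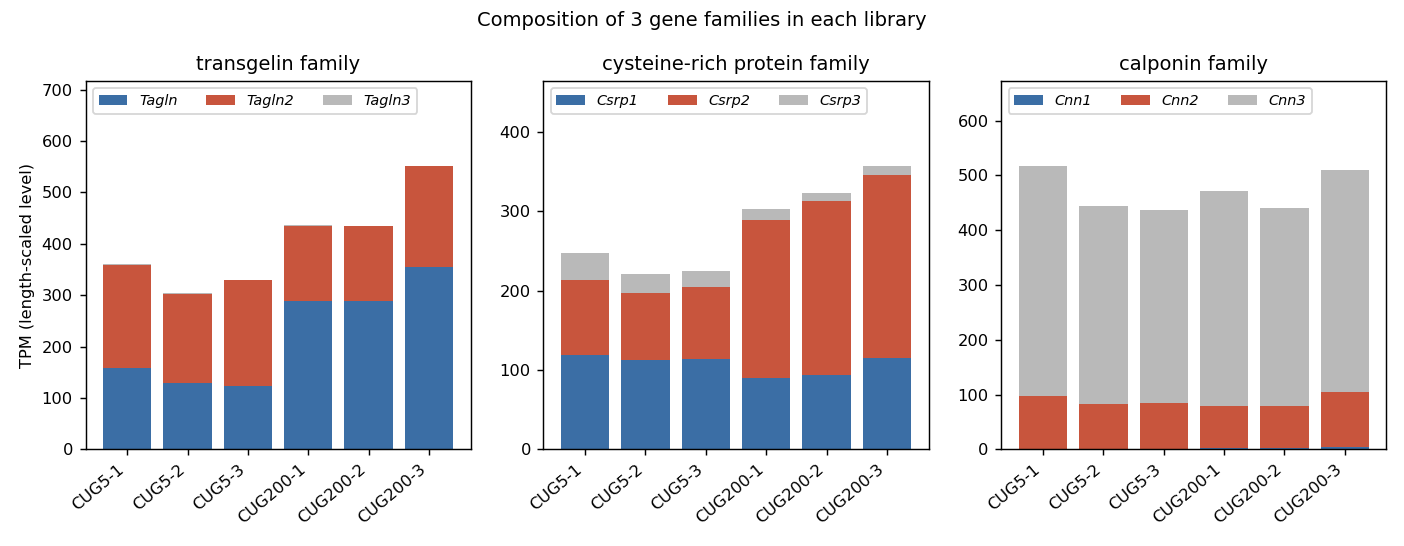
Stacked TPM of the transgelin, cysteine-rich protein and calponin genes in each of the 6 libraries, with 1 color per gene. *Tagln* and *Csrp2* take a larger part of their families in all 3 CUG200 libraries, while *Cnn3* dominates the calponins in every library and *Cnn1* and *Tagln3* are barely visible.

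The myosin members did not change past the threshold. *Myl9* (ENSMUSG00000067818, chr2:156775420-156781658, plus strand), the smooth muscle regulatory light chain whose phosphorylation switches the motor on, measured 69.1, 65.1 and 66.9 CPM in the normal libraries and 64.0, 61.3 and 64.5 CPM in the DM1 libraries. The DM1 values were all slightly lower, with a log2 fold change of -0.08 ± 0.07 (95% interval, -0.25 to 0.08). Its near relatives *Myl12a* and *Myl12b*, the non-muscle regulatory light chains, had log2 fold changes of 0.12 ± 0.11 and 0.06 ± 0.12 (adjusted p = 0.52 and 0.78 by edgeR's quasi-likelihood test). *Myl9* gave 8.62% ± 0.54 of the TPM of these 3 genes in the normal group and 7.46% ± 0.49 in the DM1 group.

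*Myh11* (ENSMUSG00000018830, chr16:14194535-14291372, minus strand), the heavy chain that defines mature smooth muscle, was close to the detection limit. The normal libraries gave 6, 16 and 28 counts, whereas the DM1 libraries gave 0, 0 and 9. A count of 0 allows up to 3 fragments, or 12 counts at 4 counts per fragment, and the first normal library and all DM1 libraries lay under this limit. The fitted log2 fold change of -2.42 ± 1.29 (95% interval, -5.35 to 0.50) rests on these few counts and did not pass the threshold, though it did without the third DM1 library (-7.14, which leaves the DM1 group at 0 counts and is no measure of size). In TPM, *Myh11* was 0.029% of the non-muscle and smooth muscle heavy chains *Myh9*, *Myh10*, *Myh11* and *Myh14* in the normal group and 0.005% in the DM1 group. *Myh9*, the main non-muscle heavy chain here at 187.0 ± 11.0 and 166.9 ± 41.9 TPM, did not pass the threshold (log2 fold change -0.08 ± 0.11, adjusted p = 0.72 by edgeR's quasi-likelihood test). *Myh10*, another non-muscle heavy chain, was downregulated with a log2 fold change of -0.42 ± 0.09 (adjusted p = 0.017 by the same test).

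The thin filament regulators *Cald1* and *Smtn* did not pass the threshold. *Cald1* (ENSMUSG00000029761, chr6:34598500-34775473, plus strand), which encodes caldesmon and is made as a heavy form in smooth muscle and a light form elsewhere, measured 391.5, 391.7 and 419.6 CPM in the normal group and 348.5, 352.7 and 350.8 CPM in the DM1 group. The groups did not overlap, and the log2 fold change of -0.19 ± 0.08 (95% interval, -0.37 to -0.02) did not pass the threshold after adjustment. Gene-level counts do not separate the heavy and light forms.

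*Smtn* (ENSMUSG00000020439, chr11:3517523-3540612, minus strand), which encodes smoothelin, measured 198.3, 180.6 and 196.7 CPM in the normal group and 203.9, 237.5 and 274.1 CPM in the DM1 group. The lowest DM1 library was only just above the highest normal library, and the DM1 values were spread more widely (SD 35.1 against 9.80 CPM). The log2 fold change was 0.31 ± 0.11 (95% interval, 0.05 to 0.57) and did not pass the threshold, but it did without the first DM1 library, at 0.43. On the opposite strand *Gm11946* covers 714 of the 4380 exonic bases of *Smtn*, with counts that were 1.20% to 2.10% of those of *Smtn*. The smoothelin-like genes *Smtnl1* and *Smtnl2* were both under 0.4 TPM in every library.

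**Figure D3:**
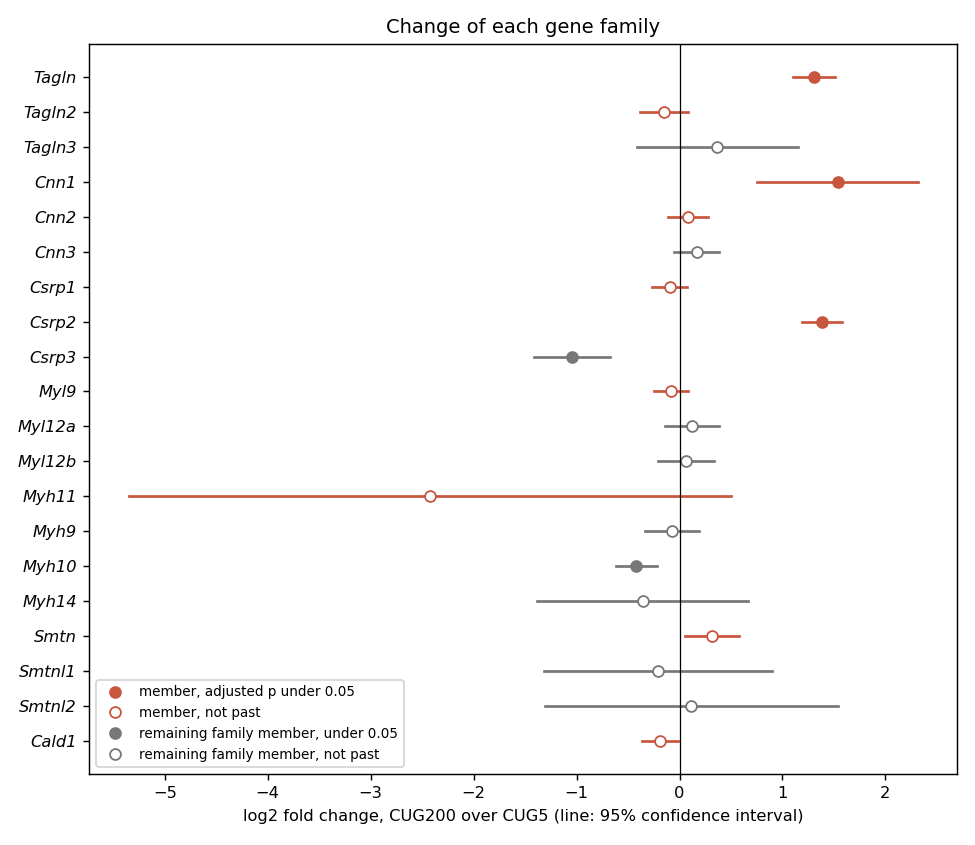
Log2 fold change of CUG200 over CUG5 for the 10 genes (red) and the 10 remaining genes of their families (gray), with lines for the 95% interval and filled points for an adjusted p under 0.05. *Tagln*, *Cnn1* and *Csrp2* lie to the right of 1, *Csrp3* lies left of -1, and the wide line of *Myh11* reflects its few counts.

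Levels of different genes were ordered by TPM. In the normal group *Cald1* (196.9 ± 10.6 TPM) and *Tagln2* (193.7 ± 17.0) were the highest and overlapped. They were followed by *Tagln* (136.7 ± 18.9), *Smtn* (124.1 ± 12.6), *Csrp1* (115.3 ± 3.67) and *Myl9* (103.8 ± 8.63), in which each gene overlapped with the next. *Csrp2* (89.9 ± 5.43) and *Cnn2* (87.1 ± 8.83) overlapped with each other, *Cnn1* (1.03 ± 0.36) lay far below, and *Myh11* was last at 0.06 ± 0.04 TPM.

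In the DM1 group *Tagln* stood first at 310.8 ± 38.0 TPM and overlapped with no other member. *Csrp2* moved from seventh to second place at 216.9 ± 16.1 TPM. *Cald1* (171.0 ± 30.5), *Tagln2* (162.3 ± 29.0) and *Smtn* (146.6 ± 34.5) came next, and the range of each overlapped with that of its neighbor, *Csrp2* included. *Csrp1* (99.4 ± 13.5), *Myl9* (89.3 ± 10.1) and *Cnn2* (85.0 ± 13.7) also overlapped in order, and *Cnn1* (2.51 ± 0.77) and *Myh11* (0.01 ± 0.02) again closed the list. The summed TPM of the 10 genes was 1048.7 ± 75.6 in the normal group and 1283.9 ± 181.9 in the DM1 group, and the lowest DM1 library (1147.4) was only just above the highest normal library (1128.6).

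The members did not vary as 1 unit. Over the 6 libraries the Pearson correlation of log2 CPM ran from -0.96 to 0.99 across the 45 pairs of members, with a median of -0.14, and the pair of *Tagln* and *Csrp2* had the highest value. With the group means removed the median was 0.29 and the range -0.83 to 0.95. These are descriptions, since the libraries share groups and scaling. The genes of at least 10 CPM whose profile was most like the mean standardised profile of the members, of 9653 searched over 6 libraries, were *Angptl2* (r = 0.99), *Sympk* (0.98), *Rsph3a* (0.98), *Ube2m* (0.98) and *Tob2* (0.97). In all 5 the third library was the highest of its group and the groups overlapped, as with *Angptl2* at 170.6, 162.3 and 216.9 CPM against 168.4, 148.3 and 254.8 CPM.

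The upstream regulators were examined as a list of SRF and its cofactors, of which 8 of 9 were tested. None was higher and 1 was lower, beside 7.13% and 8.73% of all tested genes, and the list median was -0.11 beside 0.02 over all genes. *Srf* itself measured 29.8, 28.1 and 29.0 CPM in the normal group and 18.3, 19.2 and 25.4 CPM in the DM1 group, without overlap, a log2 fold change of -0.47 ± 0.13 (adjusted p = 0.046 by edgeR's quasi-likelihood test). Without any 1 of the normal libraries, or without the first or second DM1 library, no gene of the list was called lower, nor on TPM values or with library sizes alone, and 2 were called lower without the third DM1 library. The cofactors *Mrtfa* and *Mrtfb* overlapped between the groups, with log2 fold changes of 0.13 ± 0.23 and -0.16 ± 0.12 (adjusted p = 0.76 and 0.42). *Myocd*, the cofactor of smooth and cardiac muscle, had 0, 5 and 13 counts in the normal group and 0, 0 and 12 counts in the DM1 group, and was too low to test.

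Of the other smooth muscle contractile and cytoskeletal genes, 23 of 24 were tested, with 3 higher, 6 lower and 14 not past the threshold, beside 7.13% higher and 8.73% lower among all tested genes. The list median was -0.10 beside 0.02 over all genes. Without the third normal library 0 were higher and 1 was lower, and without the second DM1 library 1 was lower. Without the first normal library 3 were lower, and without the second normal library 1 was higher and 3 were lower. On log2(TPM + 1) limma called 0 higher and 3 lower. The higher genes were *Tpm4*, a tropomyosin of non-muscle and smooth muscle filaments (log2 fold change 0.53 ± 0.10, adjusted p = 0.010), *Myl6*, the essential light chain (0.50 ± 0.09, adjusted p = 0.0095), and *Actg2*, enteric smooth muscle actin (0.43 ± 0.12, adjusted p = 0.041). The lower genes included *Pdlim5*, *Tpm2*, *Nexn* and *Des*, with log2 fold changes of -0.55, -0.46, -0.49 and -0.43 (adjusted p between 0.0053 and 0.023 in the same edgeR test). These 4 encode Z-disc, tropomyosin, actin-binding and intermediate filament proteins that skeletal muscle also uses. *Acta2*, vascular smooth muscle actin, measured 3026.7, 2798.6 and 2782.6 CPM in the normal group and 3412.6, 3231.9 and 3273.4 CPM in the DM1 group, without overlap, and its log2 fold change of 0.20 ± 0.08 did not pass the threshold (adjusted p = 0.13 by edgeR's quasi-likelihood test). *Tpm1* had a log2 fold change of 0.00 ± 0.08. None of the 9 genes past the threshold in this list exceeded an absolute log2 fold change of 1.

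Among 15 targets of SRF that growth factors induce, 2 were higher and 3 lower, beside 7.13% and 8.73% of all tested genes, with a median of -0.10 beside 0.02. The higher genes were *Cfl1*, which encodes the actin-severing protein cofilin (log2 fold change 0.43 ± 0.08, adjusted p = 0.011), and *Junb*, an AP-1 factor (0.31 ± 0.07, adjusted p = 0.025). The lower genes were the immediate early factors *Egr1* (-0.42 ± 0.09) and *Egr3* (-0.52 ± 0.13) and the matricellular gene *Ccn2* (-0.52 ± 0.13), with adjusted p between 0.015 and 0.032 in the same edgeR test. Among the remaining members of the 10 genes' families, 2 of 10 were lower (*Csrp3* and *Myh10*) and none was higher, beside the same 8.73% and 7.13%, with a median of -0.01. Without the third normal library no inducible target passed in either direction. Without the first normal, second normal and second DM1 library, 0, 1 and 1 of these targets were higher and 1, 1 and 0 were lower. Of the remaining family members 1 was lower without normal library 1, normal library 3 or DM1 library 2.

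**Figure D4:**
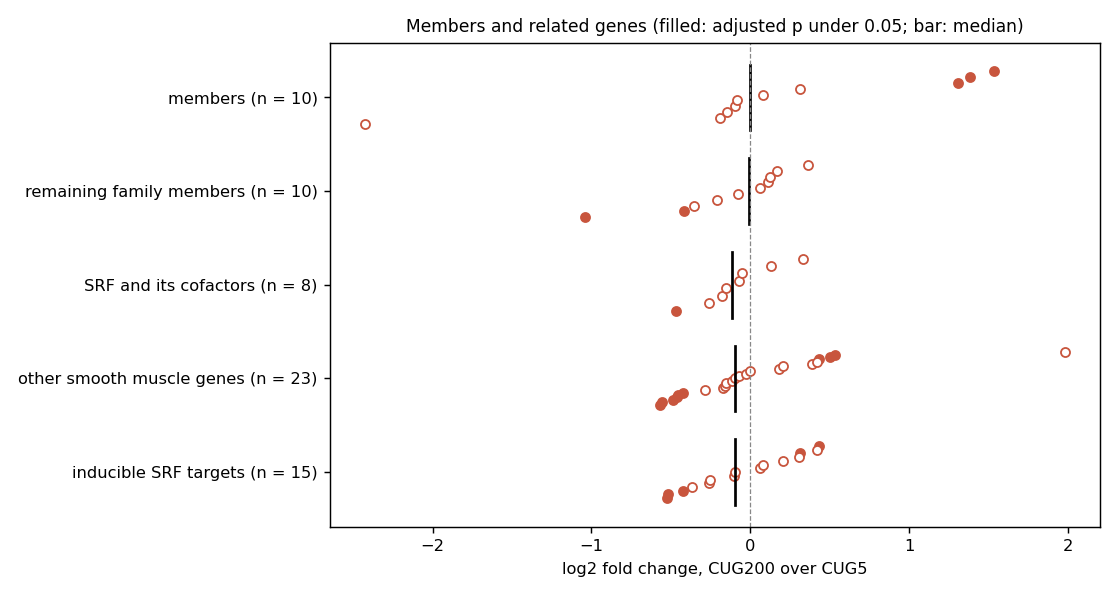
Log2 fold change of CUG200 over CUG5 for the 10 genes and 4 related lists, 1 point per tested gene, filled where the adjusted p was under 0.05, with a bar at each list's median. *Tagln*, *Csrp2* and *Cnn1* are the only filled points to the right of 1, and the medians of the lists lie between -0.11 and 0.00.

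Markers of several cell types were read beside these values. All cultures were of C2C12 cells, so a transcript from the list of another type is not read as a sign of such cells. All 10 myoblast and myotube markers were over 1 TPM in every library, and their summed level ran from 8704 to 10235 TPM in the normal group and from 4505 to 6700 TPM in the DM1 group. *Acta1*, *Tnnt3* and *Des* made up 80.6% to 83.3% of this sum. The myoblast genes *Myod1* (52.4 to 58.2 TPM in the normal group against 29.7 to 45.3 in the DM1 group) and *Myf5* (50.3 to 51.7 against 33.9 to 44.5) were also lower without overlap. In TPM the levels of the fusion genes *Mymk* and *Mymx* overlapped between the groups, whereas the study reported both as downregulated in DM1 cells by RT-qPCR. Of 10 smooth muscle markers other than the members, 5 were over 1 TPM in every library (summed 1533 to 1679 TPM against 950 to 1255 TPM), of which *Des* and *Casq2*, also skeletal muscle genes, made up 90.5% to 92.8%. *Actg2* ran from 18.5 to 18.7 TPM in the normal group and from 18.2 to 28.2 TPM in the DM1 group, while the defining genes *Myocd* and *Kcnmb1* were at or under 0.065 TPM. For fibroblasts 7 of 8 markers were over 1 TPM, with sums of 1528 to 1806 TPM in the normal group and 1797 to 2167 TPM in the DM1 group, and *Tcf21* was at 0. *Col1a1* ran from 81.9 to 96.1 TPM in the normal group and from 142.7 to 194.4 TPM in the DM1 group. *Lum* (24.9 to 33.0 against 40.9 to 53.2) and *Dpt* (20.1 to 27.2 against 41.5 to 49.0) were also higher without overlap. So was *Dcn* (630.6 to 738.9 against 797.8 to 918.8), while *Pdgfra*, *Col3a1* and *Pi16* overlapped between the groups. Pericyte markers (3 of 6 over 1 TPM, with *Kcnj8* at 0) summed to 91.7 to 102.4 TPM and 72.8 to 102.8 TPM. Endothelial markers (1 of 6, with *Erg* at 0) summed to 3.29 to 4.23 TPM and 1.18 to 2.15 TPM, and leukocyte markers (1 of 6, with *Ptprc*, *Cd3e* and *Adgre1* at 0) to 4.40 to 5.98 TPM and 4.05 to 7.14 TPM. The sum of the myoblast and myotube markers and the levels of *Tagln*, *Csrp2* and *Cnn1* thus separated the groups in opposite directions. The fibroblast markers *Col1a1*, *Dcn*, *Lum* and *Dpt* separated them in the same direction as those members. The part of the cell makeup in the members' values was not tested. In bulk RNA, fewer cells of a type and less RNA per cell cannot be told apart.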

How the data were processed

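Total RNA of 3 CUG5 and 3 CUG200 libraries was analysed, with groups and replicate numbers from the labels. The authors trimmed reads with Trim Galore, aligned them to GRCm38 with HISAT2 and made count tables with StringTie. The deposited counts per gene are not normalized. The deposited tables of each library also give coverage, FPKM and TPM per gene, which StringTie scales for length and depth. Coverage multiplied by length and divided by 75 gave the count (within 1) in 99.7% of genes with a single transcript; FPKM was not analysed further. The annotation and strand setting used are not given in the sources used here.

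The members and lists were chosen with earlier results of these data known. Counts were filtered with filterByExpr (minimum count 10), scaled by TMM (factors 0.940 to 1.05) and tested with edgeR 4.0.16 (robust glmQLFit and glmQLFTest, R 4.3.3), with Benjamini-Hochberg adjustment over 19005 genes. DESeq2 1.42.0, which the study used with an absolute log2 fold change over 1, and limma 3.58.1 on log2(TPM + 1) and log2(TPM + 0.1) were alternatives, as were other size factors and filters, counts divided by 4, overlapping genes added, a replicate block and each library left out. Tables and figures were made with Python 3.11.15, pandas 2.3.3, numpy 2.4.6 and matplotlib 3.10.9. Named genes were all 10 members, up to 5 genes per direction of each related list past the threshold by smallest p, defining genes of the SRF, actin, tropomyosin, myosin, calponin, transgelin and cysteine-rich protein groups, and the 5 genes nearest the members' mean profile. *Smtnl1* and *Smtnl2*, *Myh14* and the overlapping genes are named in addition, after their values were seen, and 1 gene that the rule would name is not reported here. No member shared exonic bases with another gene on its own strand. All library pairs differed beyond sampling noise (chi-square per degree of freedom from 10.9 to 67.7).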

Additional observations from a re-analysis of the deposited data

How the results depend on the processing

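Of 149 member values under the alternatives, 141 kept their direction and their side of the threshold. *Tagln* (1.12 to 1.38) and *Csrp2* (1.26 to 1.42) passed under every alternative run. *Cnn1* did not pass on log2(TPM + 1), at 0.78, or on log2(TPM + 0.1), at 1.22. *Cnn2* turned to -0.043 on log2(TPM + 1) and -0.043 on log2(TPM + 0.1), where the median of all genes was -0.06 and -0.09 compared with 0.02 in the count test. *Csrp1* and *Myl9* were at -0.22 on both TPM scales, and *Tagln2* was at -0.26 and -0.27, without passing the threshold. The cause of these changes was not tested.

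With 1 library left out, the log2 fold change of *Cnn1* ranged from 1.23 to 1.74, of *Myh11* from -7.14 to -1.82 and of *Smtn* from 0.20 to 0.43. That of *Tagln2* ranged from -0.22 to -0.05 and that of *Cnn2* from 0.03 to 0.13, and neither gene passed the threshold. Members called higher ranged from 2 to 4 and members called lower from 0 to 1 (*Myh11*, without the third DM1 library). Genes called ranged from 543 to 1678 higher and from 485 to 2111 lower, with both lowest counts without the third normal library. The remaining family members called lower ranged from 1 to 2, SRF and its cofactors from 0 to 1 higher and 0 to 2 lower, other smooth muscle genes from 0 to 3 higher and 1 to 6 lower, and inducible SRF targets from 0 to 2 higher and 0 to 3 lower. The cause was not tested.

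Over all genes, limma called 427 higher and 816 lower on log2(TPM + 1), 434 and 850 on log2(TPM + 0.1), and the cutoff of an absolute log2 fold change over 1 left 259 and 155. With that cutoff 1 remaining family member was lower, and 0 genes of the other 3 lists passed in either direction. On TPM values limma called 0 of SRF and its cofactors lower, 0 (TPM + 1) and 1 (TPM + 0.1) of the other smooth muscle genes higher, 3 (TPM + 1) lower, and 0 inducible targets in either direction. Library sizes alone gave 0 of SRF and its cofactors lower and 1 inducible target higher, and DESeq2 gave 5 inducible targets lower. The cause was not tested.

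The deviations of same-numbered libraries from their group means had correlations of 0.07, 0.02 and 0.03. With 3 libraries per group this cannot settle whether the numbers pair the samples, and the main test did not pair them. With the replicate number as a block, 1326 genes were higher and 1497 lower, and *Tagln*, *Csrp2* and *Cnn1* passed with log2 fold changes of 1.31, 1.38 and 1.59. The block gave *Myh11* -3.13 and 4 inducible targets lower, and changed no call of a member.

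Depth limits *Myh11*, since the floor of 3 fragments, or 12 counts, was worth 0.148 to 0.194 CPM.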
